A study of Mus musculus with 6 samples.

Results

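The expression of 10 genes of the p53 pathway and of cell-cycle arrest was followed across 6 liver tumors. They are *Trp53*, which encodes p53, its inhibitor *Mdm2*, the p53 targets *Cdkn1a*, *Ccng1*, *Bax* and *Gdf15*, and the CDK inhibitors *Cdkn1b*, *Cdkn1c*, *Cdkn2a* and *Cdkn2c*. They were picked by name, 10 of the 35683 genes in the tables, and each of the 10 averaged 1 TPM or more and passed the filter on low counts. TPM is the abundance of a transcript per length, scaled so that all transcripts of a tumor sum to 1 fixed total, and here it is summed over the transcripts of a gene. The tumors came from the livers of 2 CMRtdT mice, 3 from mouse 1 and 3 from mouse 2. Both mice were males on a C57BL/6 background that carried *Ctnnb1* ex3fl/+, a β-catenin allele made constitutively active when Cre deletes exon 3, the *MUP-uPA* transgene, which injures hepatocytes, and the *ROSA26* LSL-tdTomato reporter. Both were given a high-fat diet (HFD) from 6 weeks of age and AAV8-TBG-Cre, which expresses Cre from a hepatocyte promoter, when 8 weeks old, and 6.5 months after the virus the tumors were excised. All 6 tumors thus belong to 1 condition and no normal liver was analysed here, so the values are levels in tumors, and the only labelled grouping is mouse 1 against mouse 2. With 1 animal on each side, tumors of the same liver are the only replicates, and p-values measure the spread between them alone.

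As background, p53 is a transcription factor that is held low by the ubiquitin ligase MDM2 and accumulates after DNA damage, ribosomal stress or oncogene activity. It then switches on genes for cell-cycle arrest, such as *Cdkn1a* (p21), for apoptosis, such as *Bax*, and for its own restraint, *Mdm2* among them. CDK inhibitors form separate families. The CIP/KIP proteins p21, p27 (*Cdkn1b*) and p57 (*Cdkn1c*) bind cyclin-CDK complexes, while the INK4 proteins p16 (*Cdkn2a*) and p18 (*Cdkn2c*) bind CDK4 and CDK6 and keep RB active. *Cdkn2a* also encodes ARF, which blocks MDM2. mRNA levels do not report p53 protein, which is controlled mainly by its degradation.

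The 6 libraries held 19130532 to 27681766 estimated counts. Tumor 1 of mouse 1 differed from the other 5 in many genes. Its summed TPM of the 9 hepatocyte markers was 1224, against 21079 to 36500 in the other 5 tumors, each of the 9 being lowest there. The 13 genes of the study's proliferation signature were each highest there, with a sum of 696 TPM against 96.3 to 109.5 TPM. Summed markers of endothelial cells (11.1 against 28.7 to 68.5 TPM), macrophages (48.6 against 117 to 436 TPM), T and NK cells (0.549 against 3.31 to 10.8 TPM), B cells and neutrophils were also lowest there, with *Cd3d*, *Cd3e* and *Cd8a* listed at 0. The stellate and fibroblast sum was inside the range of the others, and the cholangiocyte sum was above them at 44.2 TPM against 4.61 to 36.3 TPM. Among the 12518 genes that averaged 1 TPM or more, 62.6% were highest in tumor 1 of mouse 1, and 2735 genes were lowest there. The median difference of the 12518 genes from the other tumors, as log2(TPM + 1) minus the median of the other 5, was 0.89. Levels of the 10 genes are therefore given both as measured and relative to this shift, and the part that cell makeup and tumor differentiation play in them was not tested. In bulk tumors, fewer cells of a type and less RNA per cell cannot be told apart.

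Outside tumor 1 of mouse 1, the 10 genes were expressed at low to moderate levels. *Bax* was the most abundant, with 46.9 ± 12.5 TPM (SD, n = 5 tumors), and *Cdkn2a* the least abundant, with 1.98 ± 1.49 TPM (SD, n = 5). *Cdkn1a*, *Ccng1*, *Cdkn2c* and *Gdf15* lay between them at means of 25.02, 23.2, 21.2 and 21.0 TPM, and neighbours in this order changed places from tumor to tumor, as *Cdkn2c* exceeded *Gdf15* in 2 of 6 tumors. *Trp53*, *Mdm2*, *Cdkn1b* and *Cdkn1c* followed at means of 15.6, 13.9, 8.38 and 4.41 TPM. *Mdm2* exceeded *Cdkn1b*, and *Cdkn1c* exceeded *Cdkn2a*, in 6 of 6 tumors. In tumor 1 of mouse 1 the order differed, with *Cdkn1a* first and *Cdkn2c* last of the 10. Of the 10 genes, 8 were highest in that tumor, *Cdkn2c* and *Gdf15* being the exceptions, against 62.6% of all genes.

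**Figure D1:**
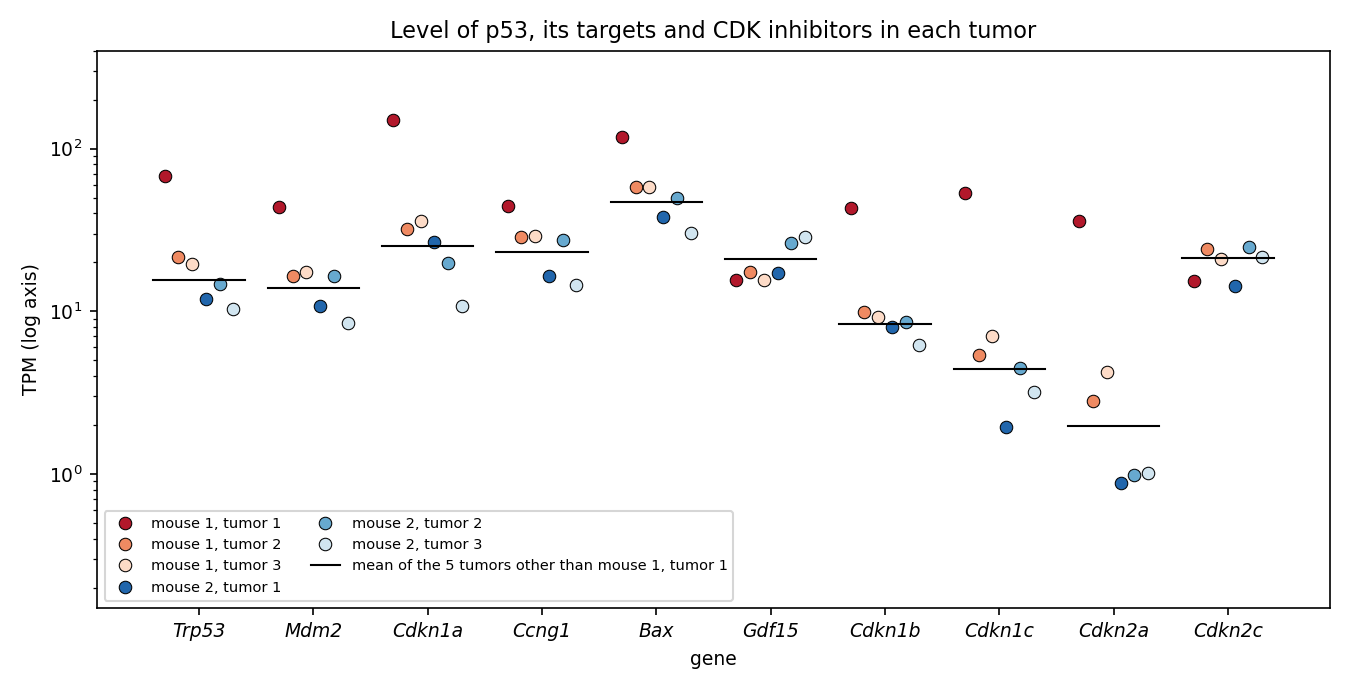
Level of each of the 10 genes in each tumor, in TPM on a log axis. Points are tumors, those of mouse 1 left of those of mouse 2, and the black line is the mean of the 5 tumors other than tumor 1 of mouse 1. *Cdkn1a* reached 150.2 TPM in tumor 1 of mouse 1 and *Cdkn2c* 15.4 TPM, and 8 of the 10 genes had their highest point there.

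*Trp53* (chr11:69580348-69591873, GRCm38) was measured in all tumors. In mouse 1 it stood at 67.7, 21.7 and 19.5 TPM (tumors 1, 2 and 3), against 11.8, 14.6 and 10.3 TPM in mouse 2, and the tumors of each mouse are given in this order throughout. Mouse 1 was above mouse 2 in every tumor, and tumor 1 of mouse 1 was 4.34-fold above the mean of the other 5. Relative to the shift of all genes this tumor was 1.25 higher on the log2 scale, and 80.8% of genes had a smaller difference. Coding transcripts held 95.8% to 100% of the level. Trp53-203, with 1170 coding bases, took 66.4% of the TPM in tumor 1 of mouse 1, against 82.7% to 95.4% elsewhere. Another coding transcript, of 1772 against 1771 bases, had 11.9 TPM in tumor 1 of mouse 1, 2.18 TPM in tumor 2 and was listed at 0 in the other 4, so the split between these transcripts is uncertain. Trp53-202, with 1134 coding bases, had 8.82 TPM in tumor 1 of mouse 1, against 0.235 to 1.55 TPM elsewhere. *Wrap53* lies antisense to *Trp53* and had 4.78 to 10.5 TPM, and since strand use is not stated for the counting, reads of the overlap cannot be assigned with certainty. The pseudogene *Trp53-ps* was listed at 0 in all tumors.

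*Mdm2* (chr10:117688875-117710758), which marks p53 for degradation and is itself a p53 target, varied less. It had 44.1, 16.4 and 17.3 TPM in mouse 1, against 10.8, 16.5 and 8.43 TPM in mouse 2. Outside tumor 1 of mouse 1 the mice overlapped, because tumor 2 of mouse 2 lay above tumor 2 of mouse 1. Per *Trp53*, *Mdm2* stood at 0.651 in tumor 1 of mouse 1, the lowest of the 6 ratios, against 0.754 to 1.13 in the other 5. Its full-length coding transcript, of 12 exons and 1467 coding bases, held 59.8% to 83.9% of the TPM of the gene over the 6 tumors. Mdm2-203, a transcript of 570 bases with no defined coding sequence, took 13.2% in tumor 1 of mouse 1 on 38.9 estimated reads.

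Of 9 other regulators of p53, 8 were highest in tumor 1 of mouse 1, beside 62.6% of all genes, and 0 passed the test between the mice. That test called 0 of all 13268 genes tested, so a count of 0 sets no list apart, here or below. The largest contrast among the 4 most abundant was that of *Mdm4*, a relative of *Mdm2* that binds and silences the p53 activation domain. It had 38.5, 3.70 and 3.89 TPM in mouse 1, against 6.13, 5.17 and 4.51 TPM in mouse 2. The ratio of *Mdm4* to *Mdm2* reached 0.874 in tumor 1 of mouse 1, against 0.225 to 0.568 elsewhere. Tumors 2 and 3 of mouse 1 had the lowest *Mdm4* and the lowest ratios of the 6. *Usp7*, a deubiquitinase of MDM2 and p53, had 48.3 TPM in tumor 1 of mouse 1 against 11.1 to 21.9 TPM, and *Kat5*, an acetyltransferase of the DNA damage response, had 36.4 against 6.73 to 13.6 TPM. *Hipk2*, a kinase of p53, was the exception, at 5.65 TPM there and 4.01 to 9.66 TPM in the other 5.

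*Cdkn1a* (chr17:29090979-29100722), the arrest gene most directly controlled by p53, had the widest range of the p53 targets among the 10. Its levels were 150.2, 32.1 and 35.7 TPM in mouse 1, against 26.6, 19.8 and 10.8 TPM in mouse 2. In TPM each tumor of mouse 1 was above each of mouse 2, as in 41.9% of all genes. This order was lost on the scaled counts given further below. Without tumor 1 of mouse 1 the highest level was still 3.31 times the lowest. Per *Trp53* the pattern was different, at 2.22, 1.48 and 1.83 in mouse 1, against 2.25, 1.35 and 1.05 in mouse 2, with tumor 1 of mouse 2 the highest and the mice overlapping. Cdkn1a-201 carried 92.1% to 95.5% of the TPM in each tumor, and Cdkn1a-205, with the same 477 coding bases, 0% to 4.69%. A rarer transcript, Cdkn1a-202, begins at position -2785, counted from the start of Cdkn1a-201, near the distal RefSeq start. It fell under the minimum for named transcripts and was chosen after its values were seen, with 1.21, 0.872 and 1.36 TPM in mouse 1, against 0.301, 0.146 and 0.477 TPM in mouse 2, on 2.14 to 23.1 estimated reads.

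Because the p53 targets share a known binding element, the promoters of the 10 genes were searched for it. RefSeq windows of 300 bases (GRCm38.p6, 250 before to 50 after a start) were at hand for 9 of the 10 genes, 13 windows in all. The p53 half-site consensus of 10 bases was present in 5 of 13 windows and in 8.36% of 32851 windows of the genome. A pair of half-sites with at most 2 mismatches in all and at most 13 bases between them was found in 3 of 13 windows, against 4.09% of all windows, and both strands were covered. These 3 belonged to the distal start of *Cdkn1a*, to *Ccng1* and to *Bax*, and are shown because they resemble the element that p53 is known to bind. Capitals mark the 2 half-sites, each sequence runs 5′ to 3′ on the strand of the gene, and *Cdkn1a* and *Ccng1* had 1 mismatch each and *Bax* 2 with 1 base between the half-sites. A match is a description of the letters and not a measured binding site.
Cdkn1a distal start, chr17:29090903-29090972, plus strand: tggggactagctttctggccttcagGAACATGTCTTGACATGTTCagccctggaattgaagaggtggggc
Ccng1, chr11:40755437-40755506, minus strand: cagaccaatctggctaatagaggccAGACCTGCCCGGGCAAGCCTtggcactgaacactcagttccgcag
Bax, chr7:45467054-45467124, minus strand: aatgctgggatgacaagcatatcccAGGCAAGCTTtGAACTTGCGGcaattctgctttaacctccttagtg

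*Ccng1* (chr11:40748552-40755309) encodes cyclin G1, a p53 target that recruits a phosphatase to MDM2. It had 44.7, 28.5 and 29.2 TPM in mouse 1, against 16.5, 27.4 and 14.5 TPM in mouse 2. Each tumor of mouse 1 was above each of mouse 2 in TPM, though not on the scaled counts given below, and tumor 2 of mouse 2 lay close to the lower tumors of mouse 1. Relative to the shift of all genes, *Ccng1* in tumor 1 of mouse 1 was -0.20 on the log2 scale, so it stood slightly under the typical gene. Its ratio to *Trp53* was 0.66 there and 1.31 to 1.88 in the other 5. A single transcript, of 3512 bases, held at least 99.6% of its TPM in each tumor. *Nudcd2* overlaps it on the other strand, with 26.1 to 70.6 TPM, which leaves the reads of the overlap uncertain.

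*Bax* (chr7:45461695-45466903), the BCL2 relative that permeabilizes mitochondria in apoptosis, had 117.8, 58.4 and 58.5 TPM in mouse 1, against 38.0, 49.4 and 30.4 TPM in mouse 2. The mice did not overlap in TPM but did on the scaled counts given below. Tumor 1 of mouse 1 was 2.51-fold above the mean of the other 5, or 0.35 above the shift of all genes on the log2 scale. Bax-201, which encodes the full-length protein, held 72.4% of the TPM in tumor 1 of mouse 1, against 77.4% to 88.9% elsewhere. Bax-203, of 5 exons, took 21.3% there and 4.56% to 9.69% in the other 5, and Bax-205 took 3.90% there and 2.17% to 12.9% in the other 5. The annotated gene *Gm45808* overlaps *Bax* on the same strand, with 0 to 4.38 TPM, so some reads could belong to either. Among 11 other members of the BCL2 family, 10 averaged 1 TPM or more, 7 of them highest in tumor 1 of mouse 1 and 2 lowest. Over all genes 62.6% were highest and 2735 of 12518 lowest there, so both counts are near this background. As among all genes tested, 0 of the family passed the test between the mice. The anti-apoptotic *Bcl2l1* had 100.005, 60.5 and 57.7 TPM in mouse 1, against 33.5, 37.2 and 27.3 TPM in mouse 2. *Bax* over *Bcl2l1* therefore stayed within 0.965 to 1.33 in the other 5 tumors, and at 1.18 in tumor 1 of mouse 1. *Mcl1*, another survival gene, had 72.9 TPM in that tumor against 37.6 to 48.2 TPM, and the pro-apoptotic *Bad* 32.5 against 19.9 to 21.4 TPM. *Bok*, a BAX-like effector, went the other way, at 4.51 TPM there against 27.8 to 61.7 TPM.

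*Gdf15* (chr8:70629393-70632470), a secreted stress cytokine induced by p53 and by the integrated stress response, did not follow the other p53 targets. It had 15.5, 17.5 and 15.7 TPM in mouse 1, against 17.1, 26.2 and 28.7 TPM in mouse 2. Tumor 1 of mouse 1 was the lowest of the 6, and tumor 1 of mouse 2 lay inside the range of mouse 1. Per *Trp53* it stood at 0.229, 0.807 and 0.802 in mouse 1, against 1.44, 1.79 and 2.79 in mouse 2. *Trp53* itself was higher in every tumor of mouse 1, which lowers this ratio there, so the gap is not that of *Gdf15* alone. Gdf15-202 held 83.9% to 95.2% of its TPM, and a longer transcript with the same 909 coding bases the remainder. Of 10 genes of the integrated stress response, 3 were highest and 4 lowest in tumor 1 of mouse 1. The same tumor was highest in 62.6% and lowest in 2735 of all 12518 genes. As among all genes tested, 0 of these 10 passed the test between the mice. *Atf4*, its main transcription factor, had 93.4, 84.2 and 78.4 TPM in mouse 1, against 90.0, 122 and 75.2 TPM in mouse 2, and *Ddit3* (CHOP) had 26.7, 34.1 and 35.4 TPM, against 23.6, 148.5 and 23.4 TPM. Tumor 2 of mouse 2 was the highest for both. *Fgf21*, a hepatokine of this response, had 1.61, 40.4 and 29.8 TPM in mouse 1, against 64.1, 110.7 and 49.0 TPM in mouse 2, lowest in the same tumor as *Gdf15*. *Asns*, which makes asparagine, had 398 TPM in tumor 1 of mouse 1, against 0.501 to 10.2 TPM elsewhere, so targets of this response differed in direction there.

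The 27 other p53 targets on the list each averaged 1 TPM or more. Of these, 21 were highest and 5 lowest in tumor 1 of mouse 1, beside 62.6% highest and 2735 of 12518 lowest among all genes. The median difference of the list was 1.21 on the log2 scale against 0.89 for all genes. The most abundant, *Rps27l*, a ribosomal protein relative, had 616, 713 and 621 TPM in mouse 1, against 897, 1013 and 917 TPM in mouse 2, with no overlap between the mice. *Ei24*, an endoplasmic reticulum protein, was nearly even at 79.6 to 116.5 TPM, while *Perp*, a junction and apoptosis protein, had 138.0, 80.1 and 79.2 TPM in mouse 1, against 29.9, 78.6 and 50.04 TPM in mouse 2. *Trp53inp1*, which binds p53-modifying kinases, had 40.2, 34.6 and 34.5 TPM, against 21.9, 26.1 and 16.5 TPM. Chosen after their values were seen, *Pmaip1* (NOXA) had 29.3 TPM in tumor 1 of mouse 1 against 0.343 to 1.63 TPM, and *Phlda3*, an AKT repressor, 83.6 against 1.69 to 10.8 TPM. The death receptor *Fas*, chosen likewise, had 2.07 TPM there against 17.4 to 26.8 TPM, and the kinase *Plk3* 1.34 against 10.3 to 30.3 TPM. The list thus held genes far above and far under the other tumors at once. None of the 27 passed the test between the mice, which called 0 of all 13268 genes tested.

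**Figure D2:**
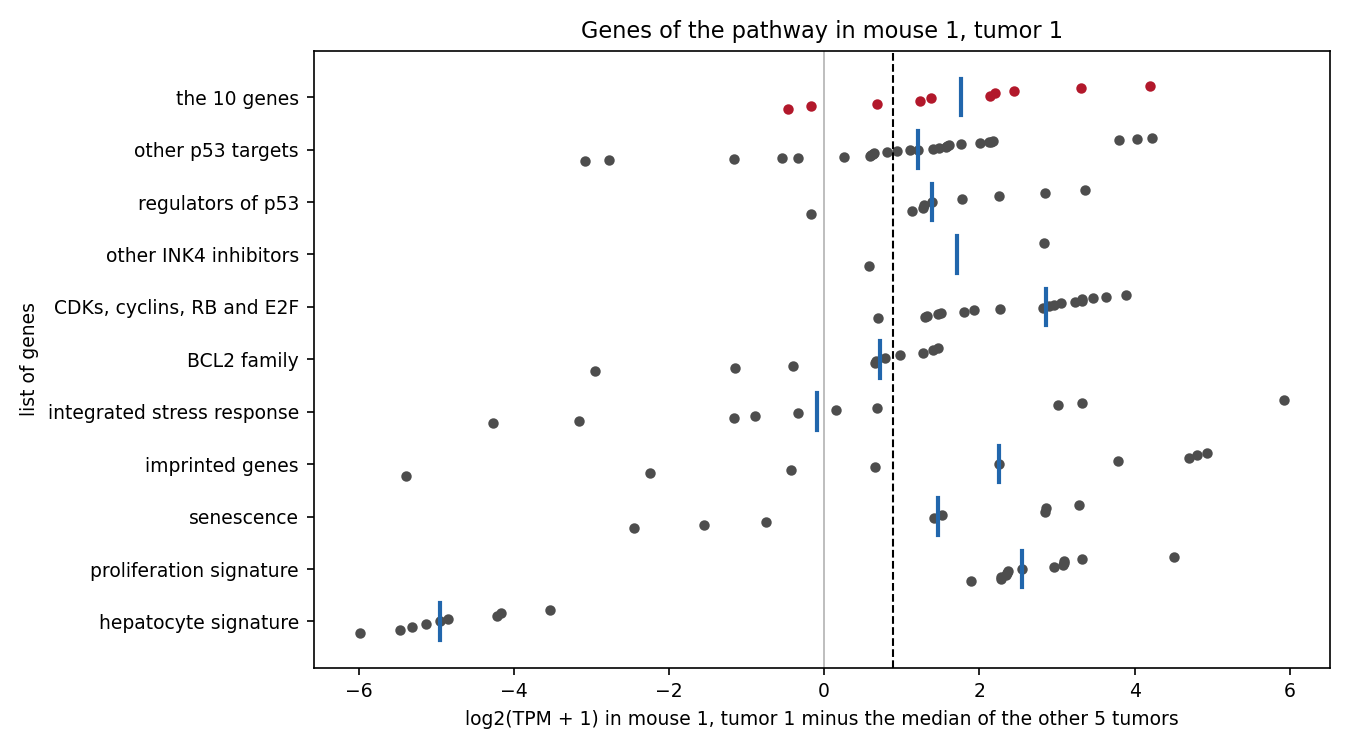
Difference of tumor 1 of mouse 1 from the median of the other 5 tumors, on the log2(TPM + 1) scale, for the genes of each list that averaged 1 TPM or more. Each point is a gene, blue bars are list medians, the dashed line is the median of all genes (0.89) and the gray line is 0. The 10 genes have a median of 1.76, p53 targets reach from below -3 to above 4, and the hepatocyte markers all lie to the left of 0.

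Of the CIP/KIP inhibitors beside *Cdkn1a*, *Cdkn1b* (chr6:134920401-134925525) was the steadiest of the 10 genes outside tumor 1 of mouse 1. It had 43.4, 9.86 and 9.24 TPM in mouse 1, against 7.97, 8.65 and 6.20 TPM in mouse 2. The mice did not overlap in TPM but did on the scaled counts given below. Without tumor 1 of mouse 1 the highest tumor was only 1.59 times the lowest in TPM. All 3 annotated transcripts hold the same number of coding bases, 591, and differ in length and exons. Cdkn1b-201 has 3 exons, Cdkn1b-202 has 2 and Cdkn1b-203 has 4. Cdkn1b-202, the longest at 4552 bases, held 39.0% of the TPM in tumor 1 of mouse 1, against 19.3% to 29.7% elsewhere. Cdkn1b-201 held 48.8% there and 63.1% to 80.7% in the other 5. Cdkn1b-203 had 5.30 TPM there and 1.29 TPM in tumor 2 of mouse 2, and was listed at 0 in the other 4.

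*Cdkn1c* (chr7:143458339-143461059), an imprinted gene expressed from the maternal allele, had 53.2, 5.41 and 7.02 TPM in mouse 1, against 1.95, 4.47 and 3.18 TPM in mouse 2. Tumor 1 of mouse 1 was 12.1-fold above the mean of the other 5, which were themselves spread 3.60-fold. Reads from the gene fell on 5 transcripts with partly uncertain splits. The long coding ones, Cdkn1c-201 and Cdkn1c-202, had 19.9 and 10.7 TPM in tumor 1 of mouse 1, against 1.117 to 3.17 and 0 to 1.57 TPM in the other 5. The short coding form Cdkn1c-205, of 667 bases, had 12.1, 2.61 and 2.29 TPM in mouse 1, against 0.369, 1.18 and 1.22 TPM in mouse 2. It held 18.9% to 48.3% of the TPM of the gene and was the most abundant form in tumor 2 of mouse 1. Cdkn1c-204, which retains an intron, had 9.88 TPM in tumor 1 of mouse 1 on 51.6 estimated reads, against 0 to 0.957 TPM in the other 5. Its share of the TPM of the gene was 18.6% there. In tumors 1 and 2 of mouse 2 it was 23.8% and 21.4%, on 2.78 and 5.29 estimated reads. *Phlda2* and *Slc22a18*, maternally expressed neighbours in the same imprinted domain, did not share its pattern. *Phlda2* had 0.852 TPM in tumor 1 of mouse 1 against 2.57 to 13.7 TPM, and *Slc22a18*, a transporter, 2.41 against 98.9 to 151.1 TPM, each the lowest of the 6. Of 13 imprinted genes, 11 were in the tables and 9 averaged 1 TPM or more, with 5 highest and 3 lowest in that tumor. Among all genes 62.6% were highest and 2735 of 12518 lowest there. *Mest* had 27.8 TPM there against 0.808 to 3.05 TPM, and *Igf2r* 10.95 against 10.96 to 17.4 TPM.

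*Cdkn2a* (chr4:89274473-89294619) was low in 5 tumors and high in 1. It had 36.0, 2.80 and 4.23 TPM in mouse 1, on 471, 38 and 75 estimated reads, against 0.883, 0.979 and 1.01 TPM in mouse 2, on 15, 15 and 16 reads. Mouse 1 was above mouse 2 in every tumor, and the tumors of mouse 2 were nearly equal. Tumor 1 of mouse 1 was 18.2-fold above the mean of the other 5 and 3.31 above the shift of all genes on the log2 scale, the widest of the 10 genes, and 96.6% of genes had a smaller difference. The locus has separate first exons, 12141 bases apart, that join a shared exon 2 in different reading frames and so yield p16 and ARF. Both junctions are shown, as they are what tells the transcripts apart, with the last 45 bases of each first exon in lower case and the first 45 of exon 2 in capitals (chr4, minus strand, GENCODE on GRCm39).
p16 transcript Cdkn2a-201: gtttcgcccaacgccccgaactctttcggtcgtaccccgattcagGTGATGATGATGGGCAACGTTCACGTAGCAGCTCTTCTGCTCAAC
Arf transcript Cdkn2a-202: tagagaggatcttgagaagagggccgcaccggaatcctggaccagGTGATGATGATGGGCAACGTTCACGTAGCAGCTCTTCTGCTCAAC

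The p16 first exon ends on a whole codon and the Arf first exon leaves 1 base over, so the same capitals are translated into unrelated proteins of 168 and 169 residues. The Arf transcript had 21.1, 0.624 and 0.952 TPM in mouse 1, against 0.32, 0.241 and 0.492 TPM in mouse 2, and the p16 transcript 14.9, 2.17 and 3.28 TPM, against 0.563, 0.737 and 0.522 TPM. Arf exceeded p16 in tumor 1 of mouse 1 alone. By estimated reads, Arf made up 59.4% of 471 there (95% Wilson interval 55.0% to 63.8%), 23.7% of 38 (12.99% to 39.2%) in tumor 2 and 22.7% of 75 (14.7% to 33.3%) in tumor 3 of mouse 1. In mouse 2 it made up 6 of 15 reads (19.8% to 64.3%), 4 of 15 (10.9% to 52.0%) and 8 of 16 (28% to 72%). The interval of tumor 1 of mouse 1 lies clear of those of the other tumors of mouse 1 but overlaps those of tumors 1 and 3 of mouse 2, where reads are few. These intervals treat each estimated read as assigned with certainty. Reads of the shared exons were split by estimation, so the intervals are too narrow.

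*Cdkn2c* (chr4:109660876-109666756), an INK4 inhibitor of CDK4 and CDK6, had 15.4, 24.2 and 20.8 TPM in mouse 1, against 14.3, 24.9 and 21.7 TPM in mouse 2. Its SD over 6 tumors was 4.44 TPM on a mean of 20.2 TPM, the mice overlapped fully, and tumor 1 of mouse 1 was second lowest. Relative to the shift of all genes it was -1.36 on the log2 scale in that tumor. Its transcripts share 504 coding bases but start 343 bases apart and were high in different tumors. The short Cdkn2c-201, of 1106 bases, had 9.68, 22.1 and 18.7 TPM in mouse 1, against 12.7, 22.9 and 20.003 TPM in mouse 2, while the long Cdkn2c-202, of 2471 bases, had 5.70, 2.05 and 2.09 TPM, against 1.58, 1.97 and 1.65 TPM. The long form took 64.9% of 453 estimated reads in tumor 1 of mouse 1 (95% Wilson interval 60.4% to 69.2%), against 23.5% to 31.6% in the other 5, whose intervals end at 36.7% or lower. Shares of reads are not scaled for length. In TPM the long form held 37.1% there and 7.61% to 11.1% in the other 5, so the short form was the more abundant in each tumor. Here too the intervals leave out the uncertainty of assigning shared reads. In TPM, a summed gene level inside the range of the other tumors held a different mixture of transcripts in that tumor. On depth-scaled counts (CPM) normalized by TMM, a method that aligns the bulk of genes between libraries, the summed level was the lowest of the 6 there, at 13.1 CPM against 18.9 to 31.6 CPM.

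**Figure D3:**
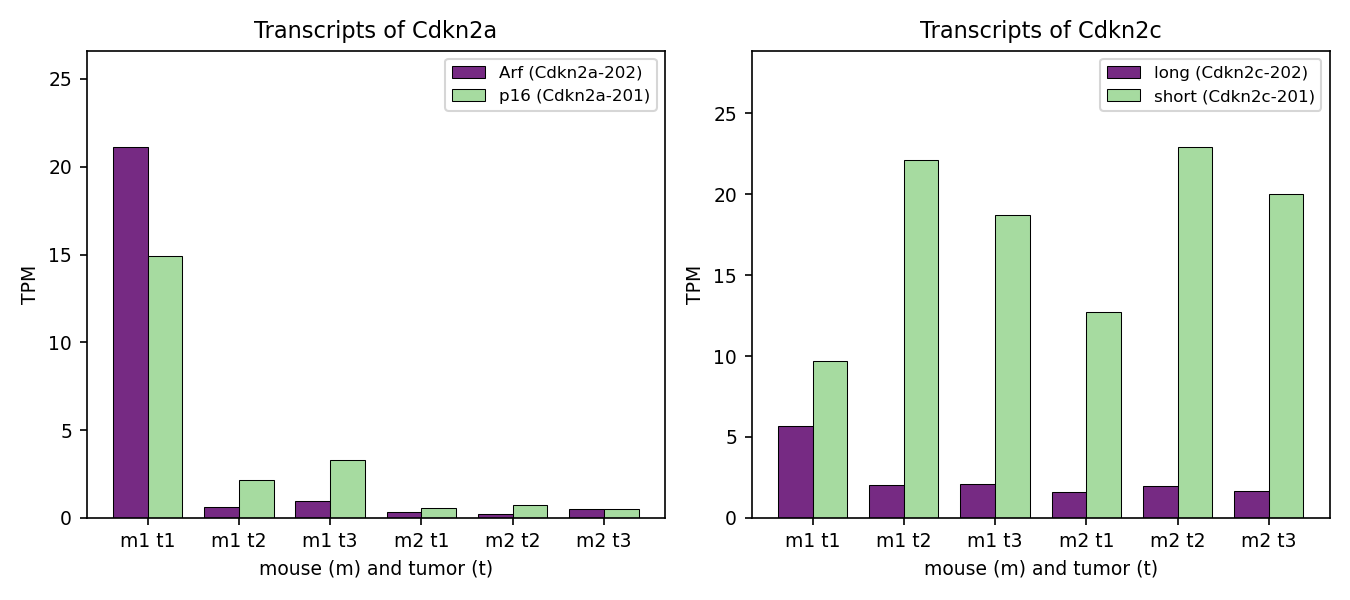
TPM of the alternative transcripts of *Cdkn2a* (left) and *Cdkn2c* (right) in each tumor, those of mouse 1 left of those of mouse 2. In tumor 1 of mouse 1, Arf reached 21.1 TPM and p16 14.9 TPM, and the long *Cdkn2c* transcript 5.70 TPM beside 9.68 TPM of the short one. In the other 5 tumors the long one stayed between 1.58 and 2.09 TPM.

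The remaining INK4 genes split in the same manner. *Cdkn2d* (p19) had 29.5, 3.28 and 4.27 TPM in mouse 1, against 2.88, 3.33 and 2.82 TPM in mouse 2, and *Cdkn2b* (p15), the neighbour of *Cdkn2a*, had 1.97, 0.982 and 1.65 TPM, against 0.381, 3.92 and 0.188 TPM. *Cdkn2b* was highest in tumor 2 of mouse 2, so it did not share the peak of *Cdkn2a*. Of the 18 genes of CDKs, cyclins, the RB family and E2F factors, 17 were highest in tumor 1 of mouse 1, beside 62.6% of all genes. *Cdk6* was the exception and was named after its values were seen, with 9.17, 6.41 and 9.19 TPM in mouse 1, against 4.996, 5.27 and 5.16 TPM in mouse 2. The kinases that INK4 proteins bind thus differed, since *Cdk6* was nearly level in tumors 1 and 3 of mouse 1 and *Cdk4* was not. *Cdk4* had 530.3, 38.4 and 34.9 TPM in mouse 1, against 22.0, 39.8 and 25.8 TPM in mouse 2, and *Cdk1*, the mitotic kinase, 123.9, 9.62 and 11.5 TPM, against 11.7, 12.8 and 10.6 TPM. *Ccnd1* and *Ccnd3*, the cyclin D partners of CDK4, had 202.8 and 100.04 TPM in that tumor against 13.7 to 24.3 and 17.5 to 39.6 TPM. *Cdkn2c* per *Cdk4* was lowest in tumor 1 of mouse 1, at 0.029 against 0.596 to 0.838 elsewhere, whereas *Cdkn2a* per *Cdk4* was 0.068 there and 0.0246 to 0.121 in the other 5, with no separation. *Cdkn1a* per *Cdk4* was lowest there, at 0.283 against 0.418 to 1.21. None of the 18 passed the test between the mice, which called 0 of all 13268 genes tested.

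Genes linked to senescence were mixed. Of 10 on the list 8 averaged 1 TPM or more, 5 of them highest and 2 lowest in tumor 1 of mouse 1. These counts are near those of all genes, with 62.6% highest and 2735 of 12518 lowest there. As among all genes tested, 0 of the list passed the test between the mice. *Bmi1* and *Ezh2*, Polycomb repressors of *Cdkn2a*, had 86.8 and 30.8 TPM in that tumor against 10.2 to 11.9 and 2.10 to 4.605 TPM, so they were high in the same tumor as *Cdkn2a*. *Igfbp3* had 21.4 against 2.27 to 7.99 TPM there, and the chemokine *Ccl2* 0.785 against 2.31 to 19.2 TPM. Among the proliferation genes, *Pcna* had 157.1 TPM in that tumor against 39.97 to 58.0 TPM, *Top2a* 97.4 against 2.03 to 4.76 TPM and *Mcm6* 49.9 against 7.19 to 10.97 TPM. High transcripts of some CDK inhibitors and of proliferation genes were thus measured in the same tumor, while *Cdkn2c* and *Cdkn2b* were not highest there. Whether they come from the same cells cannot be told apart in bulk RNA.

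How far tumor 1 of mouse 1 departed from the rest was set against all genes. Dixon's ratio divides the gap between an extreme tumor and its neighbour by the range, here of log2(TPM + 1). Past its 95% critical value, 3 of the 10 genes stood apart there: *Cdkn1b* at 0.774, *Cdkn2a* at 0.657 and *Cdkn1c* at 0.656. All 3 are CDK inhibitors, and the share of all genes that stood apart by a high value in that tumor was 28.5%, so 3 of 10 is near this background. *Trp53* at 0.614, *Mdm2* at 0.576, *Cdkn1a* at 0.555 and *Bax* at 0.52 did not pass. The set depended on the scale. On TMM-scaled CPM *Cdkn1b* at 0.793, *Trp53* at 0.78 and *Cdkn2a* at 0.66 passed, and *Cdkn1c* at 0.588 did not. The median difference of the 10 genes was 1.76 on the log2 scale, against 0.89 for all genes. Of the 10, 7 were above that shift, with *Cdkn2a* at 3.31, *Cdkn1c* at 2.42, *Cdkn1a* at 1.56, *Cdkn1b* at 1.31, *Trp53* at 1.25, *Mdm2* at 0.49 and *Bax* at 0.35, and *Ccng1*, *Gdf15* and *Cdkn2c* were under it at -0.20, -1.06 and -1.36. On TMM-scaled CPM *Ccng1* lost its peak and 7 of the 10 genes were highest in that tumor, against 43.4% of all genes.

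**Figure D4:**
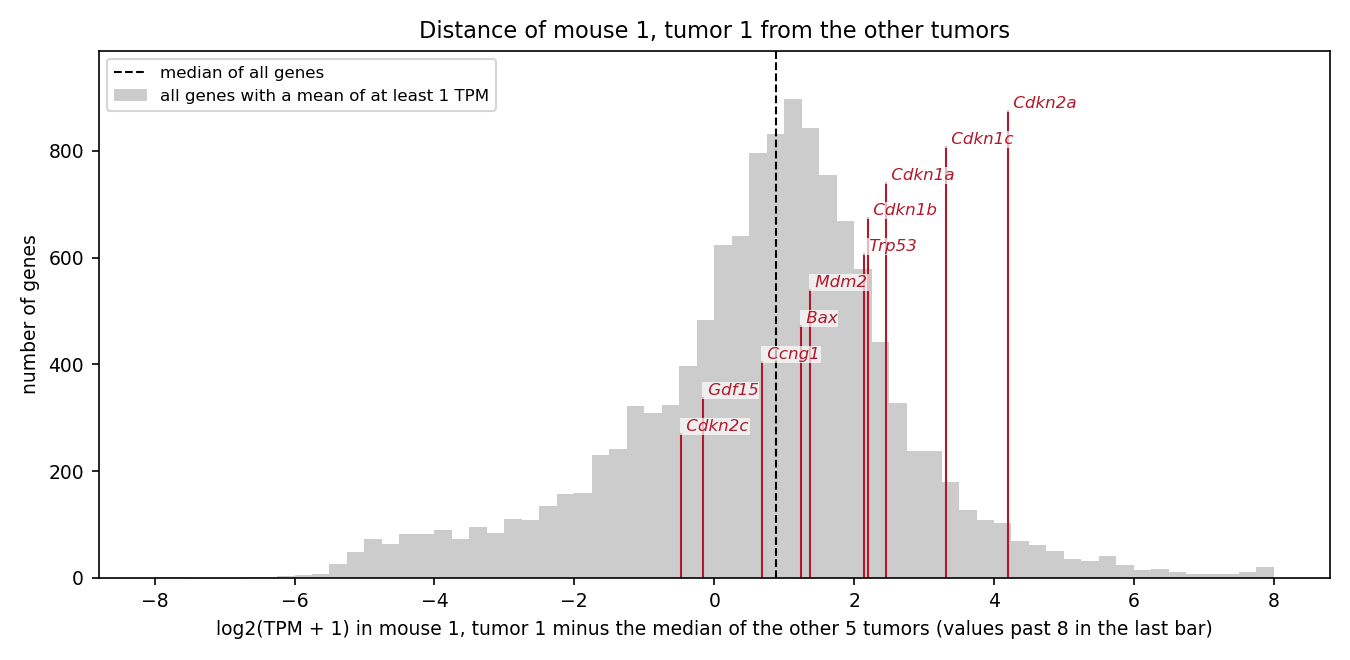
Number of genes by the difference of tumor 1 of mouse 1 from the median of the other 5 tumors, on the log2(TPM + 1) scale, for the 12518 genes that averaged 1 TPM or more. Red lines mark the 10 genes and the dashed line the median of all genes, 0.89. *Cdkn2a* and *Cdkn1c* lie in the right tail, and *Gdf15* and *Cdkn2c* to the left of 0.

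Between the mice, 7 of the 10 genes had all 3 tumors of mouse 1 above all 3 of mouse 2 in TPM, *Mdm2*, *Cdkn2c* and *Gdf15* being the exceptions. In all genes this share was 41.9%, and tumors 2 and 3 of mouse 1 were above all of mouse 2 in 7 of the 10 genes and in 57.4% of all genes. Mitochondrial genes took 6.85% to 8.34% of counts in mouse 1, against 12.9% to 18.4% in mouse 2, and their part in this was not tested. On TMM-scaled CPM only *Trp53* and *Cdkn2a* kept mouse 1 above mouse 2 without overlap, 2 of 10 against 14.4% of all genes. *Trp53* then had 59.1, 28.8 and 25.7 CPM in mouse 1, against 23.5, 25.1 and 23.5 CPM in mouse 2, so tumors 2 and 3 of mouse 1 were barely higher. *Gdf15* had mouse 1 below mouse 2 on this scale, 1 of 10 against 12.9% of all genes, with 10.6, 19.8 and 18.4 CPM in mouse 1, against 30.1, 40.3 and 57.7 CPM in mouse 2.

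The test between the mice was edgeR's quasi-likelihood test on rounded counts with TMM, adjusted by Benjamini-Hochberg over 13268 genes. It called 0 genes, 0% of those tested, and 1449 had an unadjusted p under 0.05, among them *Cdkn2a* and *Gdf15* of the 10. *Cdkn2a* had a log2 fold change, mouse 1 over mouse 2, of 2.72 (SE 0.91, adjusted p = 0.413 by edgeR), and *Gdf15* of -1.39 (SE 0.37, adjusted p = 0.412 by edgeR). DESeq2 called 202 genes of the same 6 tumors and none of the 10, with adjusted p = 0.067 for *Gdf15* and 0.108 for *Cdkn2a*. Log2 fold changes of the other 8 genes ran from -0.56 for *Cdkn2c* to 1.71 for *Cdkn1c*, each with an SE between 0.22 and 0.76, and their adjusted p by edgeR from 0.493 to 0.864. The median over the 10 was 0.45, against 0.04 over all genes.

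Without tumor 1 of mouse 1 the spread within mouse 1 shrank and the fold changes came closer to 0. edgeR then called 168 of 13374 genes, or 1.26%, and none of the 10, of which 2 had an unadjusted p under 0.05. *Cdkn2a* stood at 1.27 (SE 0.40, adjusted p = 0.165 by edgeR) and *Gdf15* at -1.16 (SE 0.29, adjusted p = 0.106 by edgeR). *Gdf15* was the 1 gene of the 10 that DESeq2 called in this setting, lower in mouse 1 at -1.16 (SE 0.33, adjusted p = 0.0079 by DESeq2), where it placed 5.85% of all genes lower in mouse 1. By limma-voom its adjusted p was 0.101. *Cdkn1b* turned to -0.15 from a value of 0.60 with all 6 tumors, and *Trp53*, *Mdm2*, *Cdkn1a*, *Ccng1* and *Bax* lay between 0.02 and 0.31. The median over the 10 was 0.06, against -0.01 over all genes. A fold change that misses the threshold does not show that the mice are alike. The SE of 0.13 to 0.40 in this setting covers the spread between tumors of the same liver and not that between animals.

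**Figure D5:**
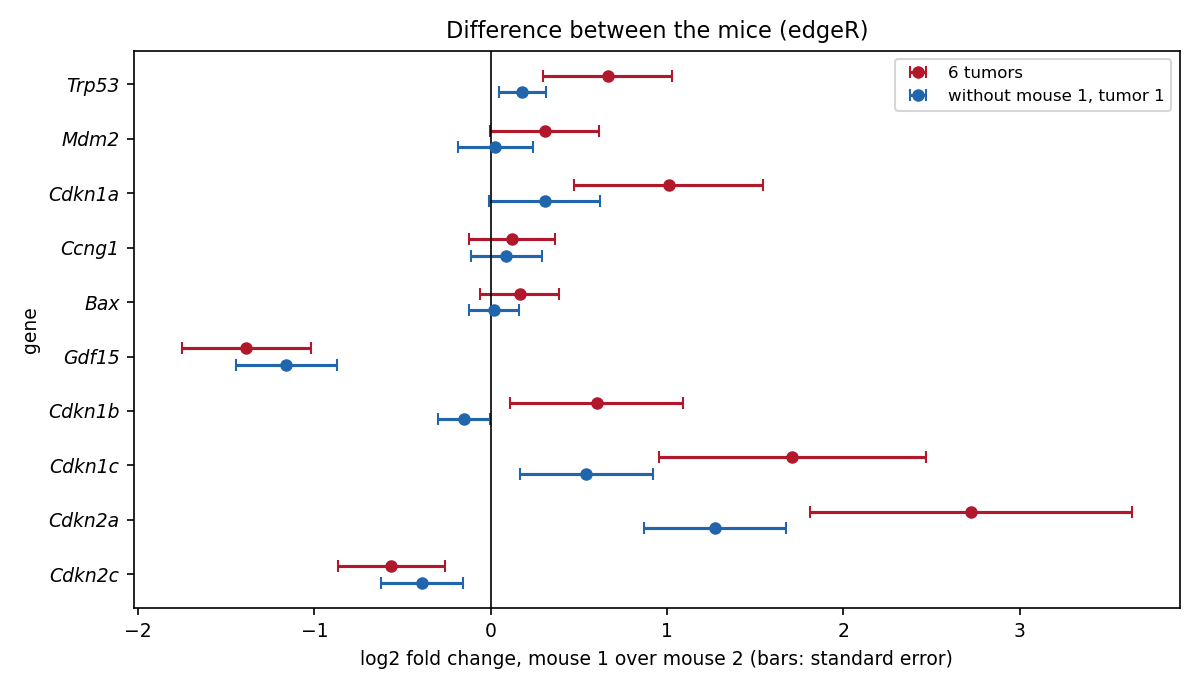
Log2 fold change of each of the 10 genes, mouse 1 over mouse 2, by edgeR. Red points use all 6 tumors and blue points leave out tumor 1 of mouse 1, and bars are standard errors. *Cdkn2a* lies at 2.72 and 1.27 and *Gdf15* at -1.39 and -1.16, while *Cdkn1b* crosses 0.

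As a description, the 10 genes were compared with each other and with all genes that averaged 5 TPM or more by Pearson's r of log2(TPM + 1) over the 6 tumors, which share 1 tumor far from the rest. Between 17.0% and 37.7% of 8760 genes reached an r of 0.9 with each of *Trp53*, *Mdm2*, *Cdkn1a*, *Cdkn1b*, *Cdkn1c*, *Cdkn2a*, *Ccng1* and *Bax*, so likeness to these 8 says little about single genes. The closest had an r above 0.99 each, namely *Ifitm1*, *Snw1* and *Lats1* for *Trp53*, *Ube2q2*, *Rpusd4* and *Tpd52l1* for *Mdm2*, *Lzts2*, *Wdr11* and *Rnf145* for *Cdkn1a*, and *Tom1l1*, *Srsf2* and *Tnnt1* for *Cdkn1b*. They were *Atf2*, *Rbmxl1* and *Tspan3* for *Cdkn1c*, *Ifitm10* and *Dek* for *Cdkn2a*, *Mgat3*, *Eif1ad* and *Bloc1s3* for *Ccng1*, and *Zfp362*, *Dync1li1* and *Srpk1* for *Bax*. For *Cdkn2c* and *Gdf15* only 28 and 13 genes reached that r. *Rcan1*, *Nmnat1* and *Rsph3b* were closest to *Cdkn2c*, with r of 0.962, 0.948 and 0.945, and *C9*, *Pdcd6* and *Tsc22d3* to *Gdf15*, with r of 0.957, 0.947 and 0.945. Over the 5 tumors without tumor 1 of mouse 1, other genes came first, *Slc35d2*, *Rpp38* and *Id3* for *Cdkn2c* and *Tmem242*, *Psma7* and *Mrpl15* for *Gdf15*. Among the 10, *Mdm2* and *Ccng1* had an r of 0.989 and *Trp53* and *Bax* of 0.962 over these 5 tumors, and *Cdkn1a* and *Gdf15* of -0.928. Over the same 5 tumors, 22.3% to 33.3% of 8755 genes reached an r of 0.9 with each of *Mdm2*, *Ccng1*, *Trp53* and *Bax*. The high r of these pairs thus says little about the pairs themselves. *Gdf15* was negatively related to *Trp53*, with r of -0.609 over 6 tumors and -0.626 over 5.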

How the data were processed

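For each tumor the authors deposited estimated counts per Ensembl transcript, made by assigning fragments to an index and not normalized, and TPM values, scaled by the authors for effective length and depth. The layout is that of Salmon. The libraries were made by poly A enrichment according to the methods, though the series text speaks of total RNA. BWA, Picard and the GRCm38 build are listed by the submitters' processing notes. For the index release and the strand setting, nothing is given in these sources.

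Identifiers of transcripts were matched to GENCODE vM39, 114813 with a match and 1733 without, and summed into 35683 genes. A symbol with more than 1 identifier was read at the identifier of the higher total. Gene positions and promoter windows came from RefSeq on GRCm38. Totals of 19130532 to 27681766 estimated counts set the precision, and a count of 0 allows up to 3 counts.

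The 10 genes, the 17 other lists and the tests were chosen with earlier results of these data known. Named are the 10 genes, their transcripts with a mean of at least 1 TPM or 10% of the gene, up to 4 of the most abundant genes of each list and those past the test, and the 3 genes most like each of the 10, of which 1 is not reported here (without tumor 1 of mouse 1, these are given for *Cdkn2c* and *Gdf15* alone). Dixon's ratio used log2(TPM + 1) with a pseudocount of 1. The contrast of mouse 1 over mouse 2 was tested with edgeR 4.0.16 (TMM, filterByExpr, two-sided quasi-likelihood test) on counts rounded to whole numbers, with Benjamini-Hochberg adjustment and a threshold of 0.05. Alternatives were DESeq2 1.42.0, limma-voom (limma 3.58.1), no filter, other scalings, tumor number as a block, coding transcripts alone, other pseudocounts, TPM without mitochondrial genes, and leaving out each tumor. The tests were tried on simulated counts. The tests ran in R 4.3.3. Tables, intervals and plots were made in Python 3.11.15 with pandas 2.3.3, numpy 2.4.6, matplotlib 3.10.9 and scipy 1.17.1.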

Additional observations from a re-analysis of the deposited data

Results flagged for a closer look

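In 3 of the 10 genes 1 tumor lay far from the other 5, by a gap above the 95% value of Dixon's ratio for 6 values, which chance exceeds in about 1 of 20 groups. In each it was tumor 1 of mouse 1, on the high side. The ratio was 0.774 for *Cdkn1b*, 0.656 for *Cdkn1c* and 0.657 for *Cdkn2a*. Of all genes that averaged 1 TPM or more, 28.5% had such a gap in the same tumor.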

How the results depend on the processing

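No gene passed the test between the mice in the main analysis, and 0 were called in 11 of 16 alternatives. With all 6 tumors DESeq2 called 202 genes, 69 higher and 133 lower in mouse 1, and none of the 10. Leaving out 1 tumor at a time, edgeR called 0 to 168 genes and 0 of the 10. Without tumor 1 of mouse 1, DESeq2 called 1369 genes and 1 of the 10 (*Gdf15*, -1.16), limma-voom 477 and edgeR with library size alone 151, and neither of these called any of the 10. Tumor number as a replicate block gave 0 calls and 0 of the 10, with 800 genes at an unadjusted p under 0.05. The correlations of same-numbered tumors were 0.034, -0.068 and 0.073, so the number does not pair them. Of 160 recomputed log2 fold changes of the 10 genes, 156 kept their direction and side of the threshold. *Cdkn1b*, at 0.60 with all tumors, ranged from -0.15 to 0.87 when 1 tumor was left out, and reversed to -0.15 without tumor 1 of mouse 1 by edgeR, by DESeq2 and by limma-voom. TMM moved the median log2 fold change of all genes to 0.04, against 0.55 with library size alone, and the median of the 10 genes to 0.45, against 1.09.

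The number of the 10 genes with a tumor that stood apart was 3, and 1 (*Cdkn1b*) with a pseudocount of 0.1 or 0.01. It ran from 0 to 3 when tumors were left out in turn, with 0 without tumor 1 of mouse 1 and 1 without tumor 2 of mouse 1. TMM-scaled CPM also gave 3, of which 2 were the same genes, with *Trp53* in place of *Cdkn1c*. Of 80 recomputed mean levels 78 moved by less than 1 SD of the 6 tumors. For means that left out 1 tumor this is no test, because dropping 1 of 6 values cannot move a mean by 1 SD. *Cdkn2a* fell to 1.98 TPM from 7.66 without tumor 1 of mouse 1 and still counted as unmoved. Without mitochondrial genes in the total, *Cdkn2c* moved to 27.4 TPM from 20.2 and *Gdf15* to 27.7 from 20.1. All 10 means rose in that setting, and these 2 genes had the smallest SDs, at 4.44 and 5.79 TPM. The 15 to 75 reads of *Cdkn2a* in 5 tumors limit its transcript shares, and 2 animals limit every statement on the mice.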
